A study of Mus musculus with 96 samples.

Results

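The clustered histone genes are the genes of the Hist1, Hist2, Hist3 and Hist4 clusters of the mouse, which encode the linker histone H1 and the core histones H2A, H2B, H3 and H4. They were taken from the gene symbols alone. Of 75 table entries with such a symbol (68 symbols), 1 pseudogene and 7 symbols that stood on 14 entries were left out. The 60 genes kept were 6 of H1, 14 of H2A, 18 of H2B, 10 of H3 and 12 of H4, among 24066 genes that had 1 entry each. Of the 60, 51 lie in Hist1, 6 in Hist2, 2 in Hist3 and 1 in Hist4.

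DNA in the nucleus is wound around an octamer of H2A, H2B, H3 and H4, and H1 binds the linker DNA between octamers. Most clustered histone genes are transcribed in S phase, when new chromatin is made, and most of their mRNAs end in a short stem-loop and carry no poly(A) tail. The stem-loop binding protein Slbp holds that end, and Npat and the U7 small nuclear RNP proteins Lsm10 and Lsm11 act in transcription and 3′ end cleavage. Some clustered genes also give a longer, polyadenylated mRNA, which is known from cells that have left the cell cycle. Poly(A) selection keeps the polyadenylated form, so a level below is a level in poly(A) RNA and not of the whole histone mRNA.

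Liver poly(A) RNA of C57BL/6J mice was measured in 96 stranded libraries, 12 in each of 8 arms. Control mothers were kept in 12 h light and 12 h dark; shifted mothers had their light phase advanced by 8 h every 5 days, during pregnancy alone. The arms were control and shifted mothers, the fetuses of control and of shifted mothers, and adult male offspring of each kind of mother on a low-fat or on a high-fat diet, given from 4 weeks of age for 12 weeks. Each arm was sampled at ZT0, ZT6, ZT12 and ZT18 (hours after lights on) with 3 libraries a time; nothing states that the 3 were separate animals, so p-values measure the spread between these samples, which may be technical. The day of gestation and the sex or pooling of fetuses are not stated either.

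Every arm came as its own table of FPKM (fragments scaled by transcript length and by the total of mapped fragments), so arm and table cannot be told apart. Depth, estimated from the FPKM step that 1 fragment makes, was about 33300000 to 62300000 fragments in 95 libraries. The other library, a high-fat control offspring at ZT0, had about 205000, and 54 of the 60 histone genes were at 0 in it. It is 1 of 5 offspring libraries whose median correlation with their own arm was under 0.95; results that rest on them are given with and without them. The 9 hepatocyte markers summed to 39371 to 82871 FPKM in fetuses and 91575 to 145099 FPKM in mothers, and the erythroid markers to 1668 to 4484 FPKM in fetuses and 11.03 to 75.6 FPKM in mothers. Both marker sets were thus present in the fetal libraries, and in such bulk samples fewer cells of a type and less RNA per cell cannot be told apart.

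The 60 genes lie in 7 stretches of GRCm38 (mm10), by the GENCODE M21 annotation. Chromosome 13 holds 29 of them at chr13:23531050-23764406, 15 at chr13:21715763-21837530, 5 at chr13:22035164-22043676 and 2 at chr13:23933773-23934851. The other genes are 6 at chr3:96219865-96270132, 2 at chr11:58948920-58956830 and 1 at chr6:136801553-136804415. Within a search limit of 500 bases between starts, 10 pairs of the set lie head to head, each an H2A gene with an H2B gene, 176 to 306 bases apart.

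The sequence that sets these mRNAs apart is the 3′ stem-loop, and it is shown because the longer, polyadenylated mRNAs run past it. FPKM per gene do not show where the RNAs of these libraries ended. The pattern GGNNCTTT followed directly by NNAGNNCC, with stem positions required to pair (A-T, G-C or G-T), was found in annotated transcripts of 37 of the 60 genes. These matches could lie anywhere in a transcript, and all annotated transcripts were searched in a narrower window. In the last 100 bases of all 141767 annotated transcripts it occurred in 23 (0.01622%), and on the other strand in 2 (0.001411%). The 37 of 60 therefore cannot be set directly against these shares. Examples follow, 5′ to 3′ on the gene's strand with the 16 bases of stem and loop in capitals; all lie in the 3′ untranslated region of the mRNA.
Hist1h1c: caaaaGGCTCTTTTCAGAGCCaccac
Hist1h2bg: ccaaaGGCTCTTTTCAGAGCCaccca
Hist3h2a: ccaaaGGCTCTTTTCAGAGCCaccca
Hist1h2ag: acaaaGGCTCTTTTCAGAGCCaccta
Hist1h3c: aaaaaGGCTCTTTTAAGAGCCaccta
Hist1h4i: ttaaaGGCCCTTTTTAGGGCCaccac

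In order, these lie at chr13:23739507-23739532 (+), chr13:23571838-23571863 (+), chr11:58955167-58955192 (+), chr13:22042478-22042503 (-), chr13:23745042-23745067 (-) and chr13:22040961-22040986 (-). The stem-loop differed little within the set and followed the class. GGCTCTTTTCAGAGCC was carried by 20 genes of H1, H2A, H2B and H3, and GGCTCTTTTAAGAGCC by 6 genes of H1, H2B and H3. The 10 H4 genes with a match carried other forms: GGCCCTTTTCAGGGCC in 6, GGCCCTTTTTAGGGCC in 2 and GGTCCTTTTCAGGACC in 2. The remaining form, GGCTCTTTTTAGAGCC, was that of 1 H2A gene.

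Annotated transcripts differed more in what follows the stem-loop. In 20 genes the annotation runs more than 100 bases past it, by 840 bases in Hist1h1c, 155 in Hist1h2bg, 330 in Hist1h4i and 1643 in Hist3h2a. In 17 genes the transcript ends near it, 23 bases after it in Hist1h2ag and 74 in Hist1h3c. In 12 genes the annotated end is elsewhere and no stem-loop was found, as in Hist1h2bc, whose 1156-base transcript has 2 exons, and in 11 only the coding sequence is annotated. The poly(A) signal AATAAA stood in the last 40 bases in 14 of the 60 genes and in 25.75% of all annotated transcripts. A match, or its absence, describes these letters in these annotated transcripts and nothing more.

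Promoters are shown for Hist1h2bg and Hist1h1c, which have high levels in every stage, and for Hist1h2bk, an H2B gene whose promoter holds the octamer with CCAAT on both strands, as the 150 bases before the start in RefSeq (GRCm38.p6, all on the plus strand: chr13:23571250-23571399, chr13:22035671-22035820 and chr13:23738657-23738806). Capitals mark ATTTGCAT (the octamer, known from H2B promoters), CCAAT and TATAAA on either strand.
Hist1h2bg: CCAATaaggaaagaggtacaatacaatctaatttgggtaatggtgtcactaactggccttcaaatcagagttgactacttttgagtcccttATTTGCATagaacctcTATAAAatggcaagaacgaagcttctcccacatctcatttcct
Hist1h2bk: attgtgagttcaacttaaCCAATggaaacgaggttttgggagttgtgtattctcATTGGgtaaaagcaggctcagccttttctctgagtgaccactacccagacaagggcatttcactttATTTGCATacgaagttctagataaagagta
Hist1h1c: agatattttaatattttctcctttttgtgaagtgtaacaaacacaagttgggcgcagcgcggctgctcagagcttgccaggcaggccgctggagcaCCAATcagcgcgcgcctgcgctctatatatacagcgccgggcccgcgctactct

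RefSeq held a promoter for 55 of the 60 genes, and motifs were counted in 250 bases before the start, on both strands. The octamer was found in 13 of the 55, namely in 7 of 14 H2A and 6 of 16 H2B promoters and in none of H1, H3 or H4, against 1.601% of 32851 promoters in all. CCAAT was found in 47 of the 55 and in 33.85% of all promoters; it was in every H1, H2A, H2B and H3 promoter and in 3 of 11 of H4. TATAAA was found in 28 of the 55 and in 12.37% of all.

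In every stage a few genes carried most of the signal. The mean was at least 10 FPKM for 6 genes in fetuses, 3 in mothers and 3 in offspring, which held 77.4%, 81.4% and 82.4% of the summed means. It was at least 1 FPKM for 37, 15 and 15 genes. Hist1h2bc, an H2B gene, had the highest level in each stage, with means of 175 FPKM in fetuses, 134 FPKM in mothers and 182 FPKM in offspring. It alone held 36.8% to 45.0% of the summed FPKM of the 60 genes in control fetuses and 53.4% to 62.8% in control mothers. The fetal set below it was Hist1h4i (H4) at 62.0 FPKM, Hist1h1c (the linker histone H1.2) at 28.8 FPKM, Hist1h2bg (H2B) at 25.4 FPKM and Hist3h2a (H2A) at 17.0 FPKM.

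**Figure D1:**
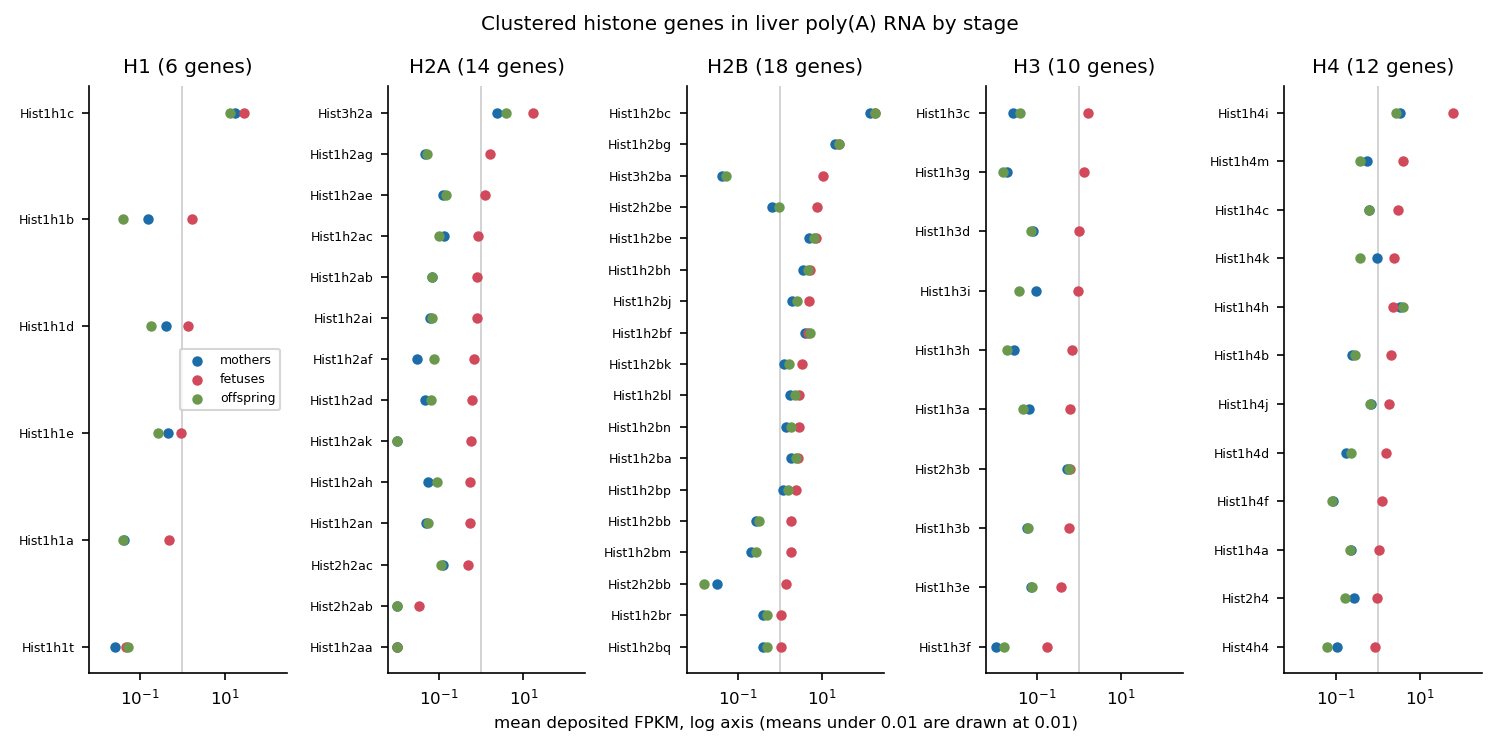
Mean deposited FPKM (log axis) of each of the 60 genes in 24 libraries of mothers, 24 of fetuses and 48 of offspring, by histone class. Hist1h2bc, Hist1h2bg and Hist1h1c are high in all stages, while most H2A and H3 genes reach about 1 FPKM in fetuses and lie near 0.1 or below in adults.

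H3 was the class with the lowest leading genes: Hist1h3c and Hist1h3g led in fetuses at 1.63 and 1.36 FPKM, and Hist2h3b led in mothers at 0.53 FPKM and in offspring at 0.586 FPKM. The offspring mean includes 11.03 FPKM from the high-fat control library of few fragments. Without that library the high-fat control mean of Hist2h3b was 0.520 FPKM, and with it 1.40 FPKM. Among H2A genes the one after Hist3h2a was Hist1h2ag in fetuses at 1.60 FPKM and Hist1h2ac in mothers at 0.134 FPKM. H1 genes other than Hist1h1c stayed low, with Hist1h1b at 1.66 FPKM in fetuses and Hist1h1e at 0.454 FPKM in mothers. Among H4 genes Hist1h4h (3.34 FPKM) and Hist1h4i (3.31 FPKM) led in mothers. Of the genes known from testis, Hist1h2aa (H2A) was at 0 in all 96 libraries, and Hist1h1t (H1) had no library over 0.211 FPKM. Hist1h2ba, the H2B gene known from testis, was measured at a mean of 3.52 FPKM in control fetuses and 2.64 FPKM in control mothers.

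The levels were split by the annotated 3′ end. Of the 6 genes at 10 FPKM or more in fetuses, 5 run past the stem-loop and the other, Hist1h2bc, ends elsewhere. None of the 28 genes that end near the stem-loop or have only a coding sequence reached 10 FPKM; their highest fetal means were 4.90 FPKM (Hist1h2bj) and 2.82 FPKM (Hist1h2bl). Medians of the 4 groups were closer, at 1.45 FPKM for genes that run past it, 1.78 FPKM for those that end near it, 1.05 FPKM for those that end elsewhere and 0.967 FPKM for coding sequence only. A model that lacks part of a transcript also changes the length that FPKM divides by, and that part was not tested.

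**Figure D2:**
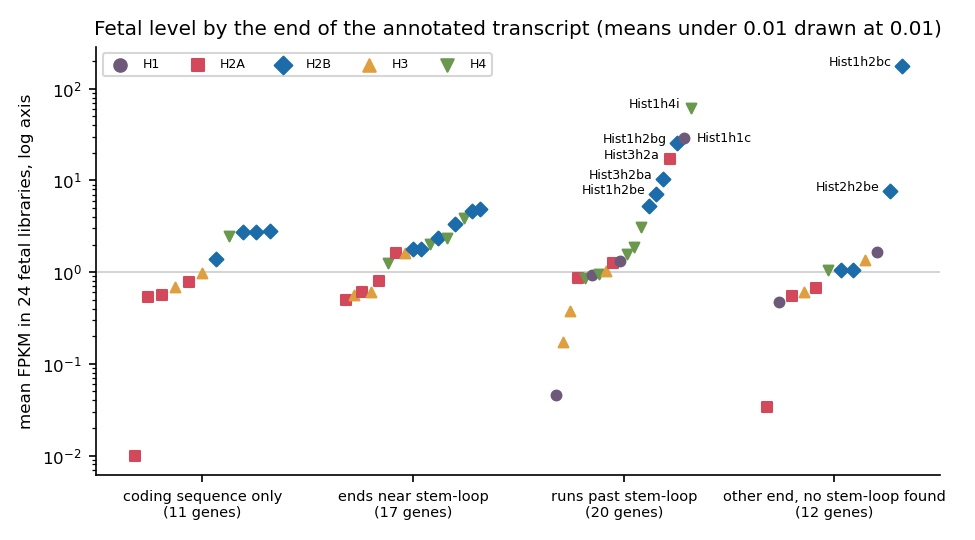
Mean FPKM over 24 fetal libraries (log axis) of the 60 genes, grouped by where the annotated transcript ends, with shapes for the histone class. The genes at 10 FPKM or more are all in the groups that run past the stem-loop or end elsewhere.

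Near-identical copies limit the values of single genes. In 25 of the 60 genes more than 50% of the 50-base stretches also stand in another gene, 17 genes overlap a gene on the other strand and 5 one on the same strand. Hist1h2bq and Hist1h2br differed by under 1% in 86 of 95 libraries and are in effect 1 measurement. Counts of genes below nevertheless hold each of them where both were tested. Hist1h2ba was within 1% of Hist1h2bj in 22 of 95 libraries, and 38.2% of its 50-base stretches are shared with Hist1h2bj, so its level is uncertain. Hist3h2a overlaps Trim17 and Hist1h2be overlaps Hist1h1e, both on the same strand.

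Between fetal and maternal liver some histone genes were higher and others lower, and the largest differences were higher fetal levels of Hist3h2ba, Hist1h4i, Hist2h2be and Hist3h2a. Of the 60 genes 46 passed the filter (at least 1 FPKM in 3 libraries), 26 of them through the fetal libraries alone, which fixed their direction. On the control schedule 30 were higher and 8 lower in fetuses at an adjusted p under 0.05 (limma, Benjamini-Hochberg over all genes), where 84.9% of all 12327 genes tested were called, 41.8% higher and 43% lower. On the shifted schedule 35 were higher and 4 lower, beside 85.4% of all genes called, 42.3% higher and 43.1% lower. The 38 and 39 of 46 histone genes called are shares near those backgrounds, and the counts are no result about the histone genes. Among the 20 genes that passed in both stages, 6 were higher and 8 lower in fetuses on the control schedule, and 10 higher and 4 lower on the shifted one.

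Hist3h2ba, an H2B gene of the small chromosome 11 cluster, showed the widest gap. It passed the filter through the fetal libraries alone, which fixed its direction. In control mothers it had 0 FPKM as lowest and median and 0.0808 FPKM as highest value, and in control fetuses 8.53, 9.77 and 14.4 FPKM (lowest, median, highest of 12). The ranges did not overlap, and the difference was 3.16 on the log2(FPKM + 1) scale (SE 0.12, adjusted p = 1.15e-23, limma). Its neighbour Hist3h2a had 1.76, 2.54 and 3.09 FPKM in control mothers and 13.1, 16.2 and 19.6 FPKM in control fetuses, a difference of 1.68.

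Hist1h4i rose by 3.08 on the same scale (SE 0.16, adjusted p = 2.70e-19, limma), from 2.39, 4.10 and 6.35 FPKM in control mothers to 47.6, 64.7 and 109 FPKM in control fetuses. Hist2h2be, an H2B gene of the chromosome 3 cluster, rose by 1.87, from 0.340, 0.632 and 1.22 FPKM to 6.08, 7.41 and 9.32 FPKM. Every fetal library was above every maternal one for both. In all, 24 of the 46 genes had fetal control libraries wholly above the maternal ones, beside 45.8% of all genes tested, and none wholly below (10.7%); on the shifted schedule these were 16 (48.8%) and none (9.59%).

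The higher genes that passed in both stages on the control schedule were Hist1h4i, Hist1h4c and Hist1h4j of H4, Hist2h2be and Hist1h2bk of H2B and Hist3h2a of H2A. Hist3h2a was the only H2A gene to pass in both stages; the other 6 H2A genes tested, led by Hist1h2ag (1.36), and 4 of the 5 H3 genes, led by Hist1h3c (1.25), passed through the fetal libraries alone. So did Hist3h2ba, and the class counts therefore say nothing of direction. The 8 lower genes included 5 of H2B and the largest adult levels: Hist1h4h fell by 0.86, Hist1h2bf by 0.48, Hist1h1c by 0.42, Hist1h2bg by 0.38, Hist1h2bc by 0.35 and Hist2h3b by 0.28 on the log2 scale. Most of these falls rested on the scaling. As deposited, 49 genes were higher and 1 lower (51 and 1 on the shifted schedule), with the median of all genes moved by 0.55 and 0.64, and of the 6 genes just named Hist1h4h alone stayed lower. Upper-quartile scaling gave 37 and 2, and 40 and 3, with the median of all genes at 0.20 and 0.19.

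On the shifted schedule the largest rises were in Hist1h4i (3.16), Hist3h2ba (2.88), Hist2h2be (1.90), Hist3h2a (1.81), Hist2h2bb (1.09) and Hist1h1b (1.02), all log2 differences. Of these, Hist3h2ba, Hist2h2bb and Hist1h1b passed the filter through the fetal libraries alone, which fixed their direction. The 4 falls were in Hist1h4h (-0.94), Hist1h2bc (-0.50), Hist1h2bg (-0.44) and Hist1h2bf (-0.34), and the last 3 turned positive as deposited. Both comparisons of stage are between tables of different arms and rest on the scaling named in each sentence.

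Other lists also differed between the stages, beside 84.9% of all genes called on the control schedule (41.8% higher, 43% lower). Genes of these lists that passed the filter through the fetal libraries alone had to be higher, and they were not counted apart. All 22 S phase and proliferation genes were higher in control fetuses, with a median of 3.19 on the log2 scale, and all 10 histone chaperones, led by Asf1b at 4.09. Of the 13 genes of histone mRNA transcription and 3′ end processing 9 were higher and 3 lower; Slbp rose by 3.01, and Eri1, a 3′ exonuclease that trims histone mRNA, by 1.10. The 11 replication-independent histones were all higher, among them H2afx (3.38) and H3f3a (1.75). RNAs that normally carry no poly(A) tail, a gauge of unselected RNA in a library, were higher in 3 of 4, and summed to 6.24, 12.4 and 27.5 FPKM in control fetuses and 0.698, 2.72 and 3.72 FPKM in control mothers. Their part in the histone values was not tested.

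In mothers on the shifted schedule clustered histone RNA was lower, most of all Hist1h1c and a group of H2B genes. Of the 60 genes 19 passed the filter; 13 fell and none rose at an adjusted p under 0.05 (limma), beside 7.91% of all 10351 genes called (3.49% higher, 4.42% lower). The median difference of the 19 was -0.47 on the log2(FPKM + 1) scale, against -0.00 over all genes tested. The falls were in 10 of 11 H2B genes tested, in the 1 H1 and the 1 H3 gene tested, and in 1 of 5 H4 genes. The H2B genes share sequence in part, so these 10 are not independent measurements. Of the 13, Hist2h3b alone had passed the filter through the control mothers only.

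Hist1h1c had 11.8, 27.2 and 61.6 FPKM in the 12 control mothers and 2.34, 8.22 and 16.2 FPKM in the 12 shifted ones. The ranges overlapped only between 11.8 and 16.2 FPKM. It fell by 1.41 on the log2 scale (SE 0.21, adjusted p = 0.00102, limma), and over 30 alternatives the difference stayed between -1.52 and -1.27.

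Among H2B genes Hist1h2ba fell by 0.81 (SE 0.10, adjusted p = 0.000194, limma), from 1.86, 2.68 and 3.52 FPKM to 0.461, 0.956 and 2.39 FPKM. Hist1h2bj, with which it shares sequence, fell by 0.76 over nearly the same values (1.88, 2.70 and 3.68 against 0.468, 1.09 and 2.41 FPKM). Hist1h2bp fell by 0.67, with 1.26, 1.61 and 2.22 FPKM in control and 0.319, 0.562 and 1.28 FPKM in shifted mothers, which met only at 1.26 to 1.28 FPKM. Hist1h2bh fell by 0.54 and Hist1h4i by 0.57, the latter from 2.39, 4.10 and 6.35 FPKM to 1.13, 2.40 and 4.11 FPKM.

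The remaining falls, in Hist1h2bl, Hist1h2bf, Hist1h2be, Hist2h3b, Hist1h2bn, Hist1h2bk and Hist1h2bg, were between -0.53 and -0.30. Hist1h2bc, which has the highest level, was not called: it had 113, 137 and 176 FPKM in control and 103, 123 and 179 FPKM in shifted mothers, a difference of -0.06 (SE 0.08, adjusted p = 0.626, limma). Its share of the summed histone FPKM was accordingly higher in shifted mothers, at 64.8% to 76.1%. The other genes tested and not called were Hist1h4h (-0.46), Hist1h4k (-0.44), Hist3h2a (-0.09), Hist1h4j (-0.05) and Hist1h4c (0.02). No histone gene had ranges wholly apart, beside 0.029% of all genes with shifted mothers wholly below.

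Genes of S phase were lower in the same comparison: 11 of 19 tested fell, among them Mcm5 (-0.78), Mcm7 (-0.54) and Rrm1 (-0.44), the first 2 subunits of the replicative helicase. These are means over the times of day: the interaction of time and schedule was called for 12 of the 19, these 3 included (adjusted p = 0.00029, 0.00029 and 0.00078, limma), and for none of the 19 histone genes tested (1 at an unadjusted p under 0.05). The summed S phase level was 42.5, 61.1 and 165 FPKM in control and 45.1, 58.6 and 88.9 FPKM in shifted mothers. The chaperones Chaf1a (-0.37) and Chaf1b (-0.43), which load H3 and H4 at replication forks, fell as well, as did H2afj (-0.65) and H2afx (-0.43) among 9 replication-independent histones tested. For Chaf1a the interaction of time and schedule was called too (adjusted p = 0.00101, limma), and for Chaf1b it was not (adjusted p = 0.135, limma). Of 5 endothelial markers 4 fell, and they summed to 35.9, 49.9 and 54.2 FPKM in control and 23.8, 32.1 and 54.9 FPKM in shifted mothers. The 2 RNAs without a poly(A) tail that were tested, Rpph1 (0.06) and Rmrp (-0.04), were not called. The part of these lists in the histone falls was not tested.

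**Figure D3:**
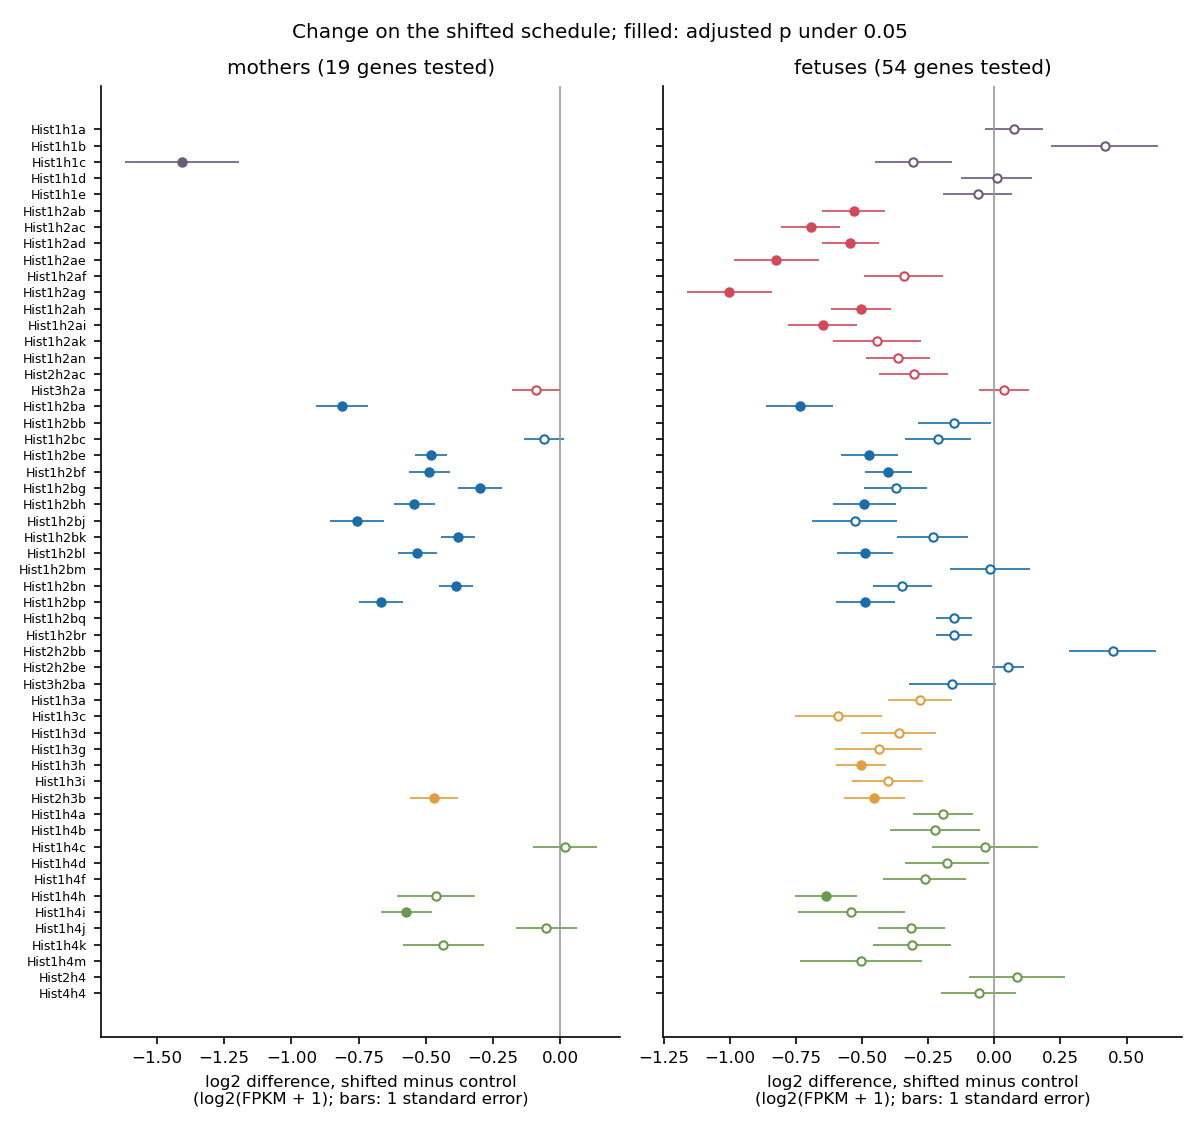
Log2 difference, shifted minus control, of log2(FPKM + 1) with 1 standard error for each gene tested in mothers (19 genes) and fetuses (54 genes), coloured by class; filled points have an adjusted p under 0.05. All filled points lie below 0 in both panels, with H2B genes in most of them in mothers and H2A and H2B genes in most of them in fetuses.

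In fetuses of shifted mothers 16 histone genes were lower, 7 of them of H2A and 6 of H2B, and the largest fall was that of Hist1h2ag. Of the 60 genes 54 passed the filter; 16 fell and none rose (adjusted p under 0.05, limma), beside 3.78% of all 11985 genes called (2.31% higher, 1.47% lower). The falls were in 7 of 12 H2A genes, 6 of 18 H2B, 2 of 7 H3, 1 of 12 H4 and 0 of 5 H1; in H1, 0 of 5 had an unadjusted p under 0.05 as well. The classes were not tested against each other, and many genes of a class share sequence, so these counts are not of independent measurements. Of the 54, 13 had passed the filter through the control fetuses alone, so that they had to be lower in shifted ones. Of these, 8 are among the 16: 6 of H2A (Hist1h2ag included), Hist1h3h and Hist2h3b. Among the 39 genes that passed in both arms 8 fell and none rose: 6 of 18 H2B, Hist1h2ae of 2 H2A and Hist1h4h of 12 H4. The median over the 54 was -0.35 on the log2 scale, against -0.01 over all genes tested.

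Hist1h2ag, whose annotated transcript ends 23 bases past its stem-loop, fell the most. It passed the filter through the control fetuses alone, so it had to be lower in the shifted ones. It had 0.720, 2.38 and 4.00 FPKM in the 12 control fetuses and 0.120, 0.593 and 2.34 FPKM in the 12 shifted ones. Most shifted libraries were below the lowest control value, although the ranges overlapped. The difference was -1.003 (SE 0.16, adjusted p = 0.00303, limma), between -1.78 and -0.67 over 30 alternatives.

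Hist1h2ae fell by 0.83, from 0.727, 1.75 and 3.24 FPKM to 0.0605, 0.554 and 1.67 FPKM. Hist1h2ac fell by 0.70 (0.590, 1.26 and 2.27 against 0.0626, 0.315 and 1.22 FPKM) and Hist1h2ai by 0.65 (0.507, 0.944 and 2.17 against 0.0981, 0.338 and 0.979 FPKM). The other H2A falls were in Hist1h2ad, Hist1h2ab and Hist1h2ah, at -0.55 to -0.50. Of the H2A genes that fell, Hist1h2ae alone had passed the filter in both arms. These are levels near or below 1 FPKM, where log2(FPKM + 1) understates the change: the median of Hist1h2ac was 1.26 FPKM in control and 0.315 FPKM in shifted fetuses.

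Outside H2A the largest falls were in Hist1h2ba (-0.74) and in Hist1h4h (-0.64), an H4 gene with 1.92, 2.90 and 4.92 FPKM in control and 0.505, 1.75 and 2.79 FPKM in shifted fetuses. Hist1h2bh, Hist1h2bl, Hist1h2bp, Hist1h2be and Hist1h2bf of H2B and Hist1h3h and Hist2h3b of H3 fell by 0.50 to 0.40. The genes with the highest levels were not called. Hist1h4i had 47.6, 64.7 and 109 FPKM in control and 23.3, 44.9 and 122 FPKM in shifted fetuses, and Hist1h2bc 134, 181 and 228 FPKM against 106, 166 and 266 FPKM. Hist2h2bb and Hist1h1b had positive differences without passing: Hist2h2bb differed by 0.45 (adjusted p = 0.125, limma) and Hist1h1b by 0.42.

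The H2A and H2B genes of a divergent pair did not always differ alike in fetuses. Hist1h2ag and Hist1h2bj, whose starts are 270 bases apart, differed by -1.003 and -0.53, the second not called. Hist1h2ae and Hist1h2bg (176 bases) differed by -0.83 and -0.37, Hist1h2ac and Hist1h2bc (251 bases) by -0.70 and -0.21, and Hist2h2ac and Hist2h2be (239 bases) by -0.30 and 0.05. Of 9 pairs with both genes tested, the H2A value was the lower in 8, and the difference within a pair was not tested. In every pair but that of Hist1h2ae the H2A gene had passed the filter through the control fetuses alone, which fixed its direction. The H2B genes had passed in both arms, so this count says nothing of a difference between the classes.

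No histone gene had fetal ranges wholly apart, beside 0.0334% of all genes with shifted fetuses wholly below and 0.0167% wholly above. With smooth trends of each library in GC content and transcript length removed, 7 of the 54 fell, and Hist1h2ab, Hist1h2ad, Hist1h2ah, Hist1h2ai, Hist1h2bf, Hist1h2bl, Hist1h2bp, Hist1h3h and Hist2h3b were no longer called, which left 3 H2A, 3 H2B and 1 H4 gene; in mothers 11 of 13 calls remained. The 22 S phase genes gave no call in fetuses (limma; 1 at an unadjusted p under 0.05), all 22 had a positive difference, and their median was 0.12. None of 9 erythroid markers, 10 chaperones, 13 genes of histone mRNA processing and 4 RNAs without a poly(A) tail was called (limma; 0, 1, 3 and 0 at an unadjusted p under 0.05). Of 11 replication-independent histones H2afj (-0.72) and H1fx (-0.46) fell and H3f3a rose by 0.36.

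**Figure D4:**
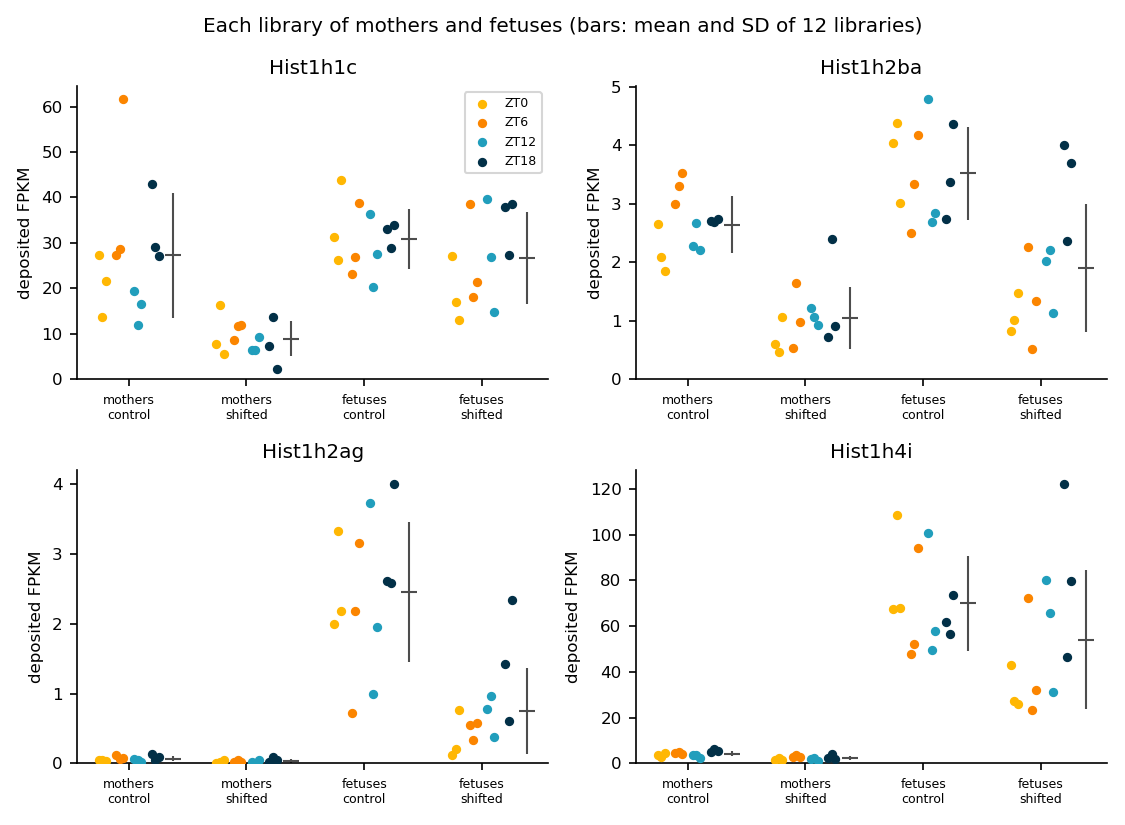
Deposited FPKM of Hist1h1c, Hist1h2ba, Hist1h2ag and Hist1h4i in each library of control and shifted mothers and fetuses, coloured by time of day, with mean and SD of 12 libraries. Hist1h1c is lower in shifted mothers with overlapping fetal groups; Hist1h2ag is lower in shifted fetuses and lies near 0 in mothers.

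Whether the schedule difference was unequal in mothers and fetuses was tested as an interaction, a comparison added after the data had been seen, over 46 histone genes. Hist1h1c and Hist1h2ag passed, beside 0.389% of all 12327 genes (0.243% higher, 0.146% lower). For Hist1h1c the shifted minus control difference in fetuses was higher than that in mothers by 1.13 (SE 0.27, adjusted p = 0.0481, limma), and for Hist1h2ag lower by 0.83 (SE 0.15, adjusted p = 0.0106, limma). In mothers Hist1h2ag was close to 0 (at most 0.126 FPKM in either arm, with means of 0.0639 FPKM in control and 0.0316 FPKM in shifted mothers), and at such levels log2(FPKM + 1) cannot show a maternal fall. Its interaction thus restates the fetal difference, whose direction the filter had fixed, and does not show unequal responses. The interaction of Hist1h1c passed the threshold in 17 of 54 alternatives and missed it in 37, with adjusted p from 0.0160 to 0.0874; that of Hist1h2ag passed in all 54. As deposited and with upper-quartile scaling, 1 gene was higher and 5 lower in each.

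In adult offspring clustered histone RNA differed between the diet arms, with H2B genes higher on the high-fat diet after either maternal schedule. Each diet arm is its own table, so diet and table cannot be told apart. Of the 60 genes 23 passed the filter. In offspring of control mothers 14 were higher on the high-fat diet and none lower (limma), beside 14.6% of all 10849 genes called (6.73% higher, 7.84% lower). In offspring of shifted mothers 15 were higher and none lower, beside 23.2% of all genes (11.5% higher, 11.7% lower). Among 16 genes that passed the filter in both arms compared, 11 and 12 were higher. Without the library of few fragments the counts were 17 and 16 of 22, and without all 5 libraries that stood apart 19 and 16, all higher.

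H2B made up 11 of the 14 and 12 of the 15, out of 14 H2B genes tested. The 14 tested include both Hist1h2bq and Hist1h2br, which are in effect 1 measurement. Other H2B genes share sequence in part as well, so the 11 and the 12 are not counts of independent measurements. The classes were not tested against each other. Hist1h2bp had 0.332, 0.720 and 1.498 FPKM on the low-fat and, without the library of few fragments, 0.532, 2.24 and 3.41 FPKM on the high-fat diet in offspring of control mothers. In offspring of shifted mothers it had 0.299, 0.852 and 1.58 FPKM on the low-fat and 1.95, 2.41 and 3.21 FPKM on the high-fat diet, 2 ranges that did not meet. The differences were 0.76 (SE 0.17, adjusted p = 0.00286) and 0.83 (SE 0.17, adjusted p = 0.000494) with limma.

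Hist1h2bh likewise did not overlap in offspring of shifted mothers (0.987, 2.86 and 4.89 against 4.93, 6.20 and 9.08 FPKM), and these 2 were the only histone genes with ranges apart there, beside 0.083% of all genes higher in that way. Its difference was 0.86 (SE 0.15, adjusted p = 0.000131, limma). In offspring of control mothers no histone gene had ranges apart over all 12 libraries, beside 0.0277% of all genes higher in that way. Hist1h2be differed by 0.69 there, with 3.09, 4.84 and 7.01 FPKM on the low-fat and 2.77, 7.89 and 10.3 FPKM on the high-fat diet without the library of few fragments. Hist1h2ba and Hist1h2bj differed by 0.88 and 0.87 in offspring of control and by 0.88 and 0.88 in those of shifted mothers.

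H4 genes took part unevenly. Hist1h4h was the largest rise in offspring of control mothers (0.96, adjusted p = 0.0216, limma), and Hist1h4i in those of shifted mothers (1.05, adjusted p = 0.000306, limma), where it had 0.646, 1.37 and 4.45 FPKM on the low-fat and 2.03, 4.37 and 7.42 FPKM on the high-fat diet. Hist1h1c was called in offspring of shifted mothers (0.78) and not in those of control mothers (-0.26). Hist2h3b was called in offspring of control mothers (0.69), but rested on 11.03 FPKM in the library of few fragments, and its call was lost without that library. In offspring of control mothers the count also varied with processing, from 7 when only the 2 arms compared were fitted to 23 without a filter; the scaling as deposited gave 8 and moved the median of all genes to -0.13.

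**Figure D5:**
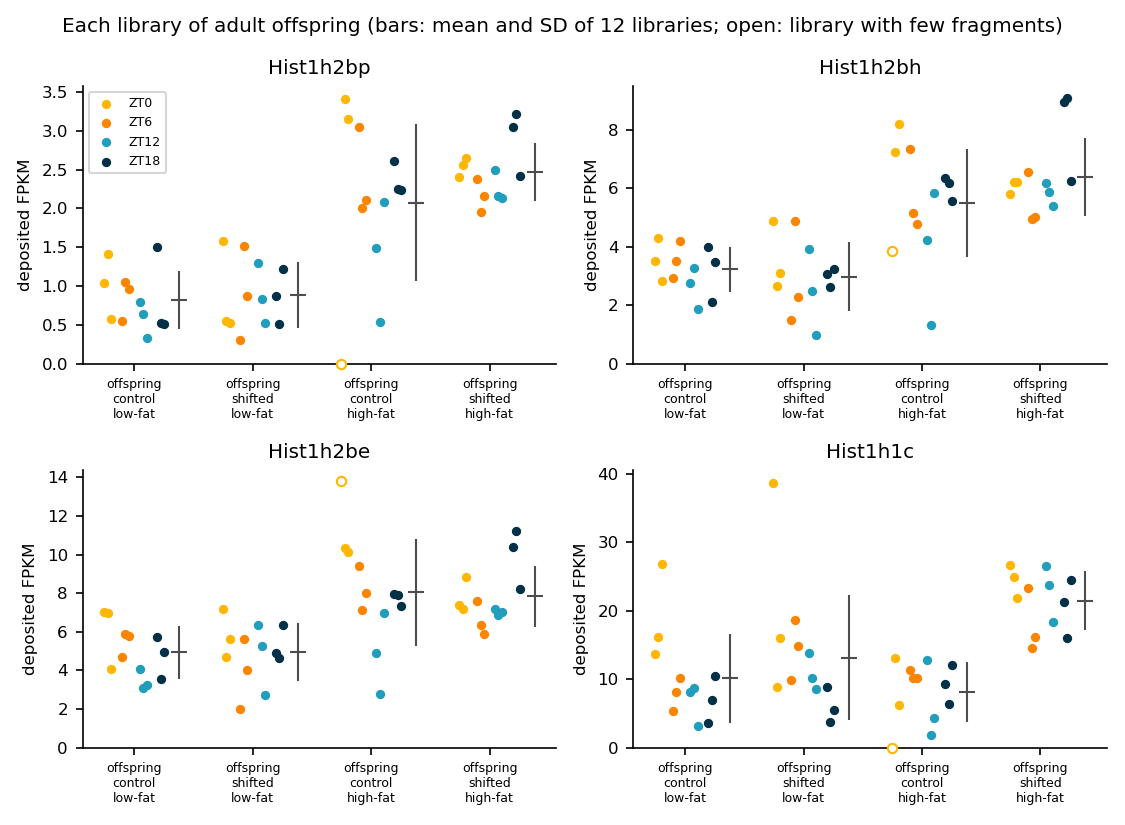
Deposited FPKM of Hist1h2bp, Hist1h2bh, Hist1h2be and Hist1h1c in each library of the 4 arms of adult offspring, coloured by time of day, with mean and SD of 12 libraries; the open point is the library of few fragments. The H2B genes are higher on the high-fat diet, and Hist1h1c is highest in high-fat offspring of shifted mothers.

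S phase genes gave few calls on the high-fat diet. Of 17 tested, 2 were higher and 1 lower in offspring of control mothers, with Tk1 at 0.46 and Rrm2 at -0.58, and 3 were higher in those of shifted mothers, with Mcm4 at 0.30. Their medians were -0.01 and -0.02 on the log2 scale, while the histone medians were 0.45 and 0.52. Among replication-independent histones H2afj rose by 1.53 in offspring of control mothers (3.35, 4.69 and 10.7 FPKM on the low-fat and 12.2, 14.5 and 39.2 FPKM on the high-fat diet). These high-fat values are over all 12 libraries, the one of few fragments included, and values without it are not given here. In offspring of shifted mothers 2 of these 9 were lower, H3f3a at -0.36 and H2afy at -0.17, and erythroid markers were higher in 2 of 4.

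By maternal schedule, none of the histone genes was called in low-fat offspring and 3 in high-fat offspring. On the low-fat diet none of the 23 was called with limma, and none had an unadjusted p under 0.05, beside 0.00922% of all genes called. The smallest p values there were those of Hist1h2bg (-0.25), Hist1h4m (0.15) and Hist1h2bh (-0.16). On the high-fat diet 2 were higher and 1 lower in offspring of shifted mothers, beside 48.2% of all genes called (26.3% higher, 21.9% lower), a smaller share of the histone genes than of all genes. The 3 calls became 11 with GC and length trends removed, 7 without the 5 libraries that stood apart, and 2 (without control ZT6 replicate 1, among others) to 6 (without control ZT0 replicate 2) with 1 library left out.

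Hist1h1c was the clearest of these. On the high-fat diet it had 1.80, 10.2 and 13.1 FPKM in offspring of control mothers without the library of few fragments, where it was at 0, and 14.5, 22.6 and 26.7 FPKM in offspring of shifted mothers. The ranges were apart, beside 1.9% of all genes higher in that way. The difference was 1.32 (SE 0.28, adjusted p = 0.00024, limma), 1.06 without that library and 0.93 without the 5 libraries. On the low-fat diet the ranges were 3.12, 8.46 and 26.9 FPKM and 3.74, 10.1 and 38.7 FPKM.

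Hist1h4i (0.51) and Hist1h2bc (-0.34) were the other calls on the high-fat diet, and both were lost without the library of few fragments, although that of Hist1h2bc stood without all 5 libraries (-0.41, adjusted p = 0.0056, limma). As deposited the split was 3 higher and none lower, with the median of all genes at 0.21, and with upper-quartile scaling 2 and none. The interaction of maternal schedule and diet gave no call among the 23 (limma; 2 at an unadjusted p under 0.05), beside 24.2% of all genes; 3 were called with GC and length trends removed and 4 without the 5 libraries. Hist1h1c had an interaction of 1.04 (adjusted p = 0.0525, limma) and Hist1h4i of 0.71 (adjusted p = 0.0659, limma). The diet comparison in offspring of control mothers and the schedule comparison on the high-fat diet share the high-fat control arm.

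Time of day was called in few or no histone genes in every arm but the high-fat offspring of shifted mothers. In control mothers 2 of 18 tested passed (limma F test over 4 times), beside 4.24% of all genes. Hist1h2be had 4.69, 4.46 and 4.77 FPKM at ZT0, 6.32, 7.09 and 7.70 FPKM at ZT6, 5.88, 5.75 and 4.86 FPKM at ZT12, and 7.19, 6.29 and 6.56 FPKM at ZT18 (adjusted p = 0.0437, limma). Hist1h2bg had 15.98 to 17.3 FPKM at ZT0, 22.1 to 29.7 FPKM at ZT6, 19.8 to 22.6 FPKM at ZT12 and 23.0 to 26.9 FPKM at ZT18 (adjusted p = 0.0439, limma). Both were lowest at ZT0. Most alternatives lost these calls: of 18, Hist1h2be kept its call in 4 and Hist1h2bg in 5.

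In high-fat offspring of shifted mothers 9 of 18 passed, beside 30.2% of all genes. Hist1h2bj had 4.66 to 5.26 FPKM at ZT18 and 2.71 to 3.85 FPKM at the other times (adjusted p = 0.00988, limma), and Hist1h2ba and Hist1h2bl also had their highest mean at ZT18. Hist1h4i had 3.82, 7.42 and 7.05 FPKM at ZT0, 3.18, 2.53 and 2.03 FPKM at ZT6, 3.92, 3.95 and 4.79 FPKM at ZT12 and 6.88, 4.83 and 6.501 FPKM at ZT18 (adjusted p = 0.00746, limma). The count rested on single libraries: it was 2 without ZT18 replicate 1 and 15 without ZT18 replicate 3 of that arm.

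In low-fat offspring of shifted mothers 1 of 16 passed, Hist2h2be (adjusted p = 0.0364, limma; 20.6% of all genes), with 1.13 to 1.37 FPKM at ZT0 and 0.766 to 0.832 FPKM at ZT12; the call was kept in 7 of 19 alternatives and lost in 12. No histone gene passed in shifted mothers (14 tested, 0.671% of all genes), in control or shifted fetuses (53 and 39 tested, 0% of all genes in each), or in low-fat (16 tested, 14.4%) or high-fat (18 tested, 0.768%) offspring of control mothers. Unadjusted p values under 0.05 with limma numbered 0, 0, 16, 4 and 2 in the same order. The share of all genes at that unadjusted threshold is not given here, so these counts are no result about the histone genes. In shifted fetuses the 16 included Hist4h4 and Hist1h4h, the 2 smallest. The interaction of time and schedule was called for no histone gene in mothers (1.64% of all genes), fetuses (0%), low-fat (0.0461%) or high-fat offspring (0%), with 1, 1, 2 and 1 at an unadjusted p under 0.05 (limma).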

How the data were processed

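Poly(A) RNA of 96 mouse liver libraries in 32 groups of 3 was used. The authors deposited FPKM per gene, 1 table for each of the 8 arms; TopHat2 2.1.1, Cufflinks 2.2.1 and mm10 are named per the submitters' processing notes. For the annotation and any filter, nothing is given in the sources used here. Groups came from the sample labels.

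Median-of-ratios factors, computed within each fit, scaled the FPKM, which were tested as log2(FPKM + 1) with limma 3.58.1 (R 4.3.3) over genes with at least 1 FPKM in 3 libraries of the fit; Benjamini-Hochberg adjusted p under 0.05 counted as called. Fits ran on mothers and fetuses together for stage, on each stage for schedule, on all offspring for diet and schedule, and on each arm for time. A pseudocount of 1 understates changes of low genes. Code was tested on simulated data. Depth was estimated from the FPKM step of 1 fragment and carries no count test. Tables and figures were made with Python 3.11.15, pandas 2.3.3 and matplotlib 3.10.9; stem-loops were read from GENCODE M21 transcripts and promoters from RefSeq.

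The genes named were, per comparison of levels, the 6 called histone genes that rose most and the 6 that fell most, or the 3 of smallest p where none was called; per time test the 4 called genes of smallest p, or 2 where none was; the 2 of highest mean per class and stage; and up to 3 of smallest p in other lists. Others were named after their values were seen. The histone genes and all lists were chosen with earlier results of these data known. Alternatives were a pseudocount of 0.1, no filter, other scalings, a replicate block, removal of GC and length trends, fits of only the arms compared, and each library left out. Leaving out the 5 libraries that stood apart, and the schedule by stage interaction, were added after the data had been seen.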

Additional observations from a re-analysis of the deposited data

Results flagged for a closer look

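Hist1h1c and Hist1h2ag passed the threshold in a test of the schedule difference between mothers and fetuses (limma, interaction of schedule and stage). For Hist1h1c the fetal minus maternal difference of the schedule effect was 1.13 (SE 0.27, adjusted p = 0.0481), with a fall of 1.41 on the log2 scale in mothers; this call held in 17 of 54 alternatives and was lost in 37 (adjusted p up to 0.0874). For Hist1h2ag it was -0.83 (SE 0.15, adjusted p = 0.0106), but the gene was at most 0.126 FPKM in mothers, where log2(FPKM + 1) cannot show a fall, so the value restates the fetal difference and no unequal response is shown. Its mean was 0.0639 FPKM in control and 0.0316 FPKM in shifted mothers. Among fetuses Hist1h2ag passed the filter through the control arm alone, which fixed the direction of its fetal difference. The interaction was chosen after the single-stage results had been seen.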

How the results depend on the processing

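Of 820 counts of called histone genes recomputed under an alternative, 716 stayed within 1.5 times the main count; of 3472 values of single genes, 3295 kept direction and side of the threshold, 146 lost the call, 23 gained one and 8 changed sign. The 8 were all fetus minus mother differences with values as deposited: on the control schedule Hist1h2bf became 0.13, Hist1h1c 0.28, Hist1h2bg 0.32, Hist1h2bc 0.38 and Hist2h3b 0.036, and on the shifted schedule Hist1h2bc 0.35, Hist1h2bg 0.36 and Hist1h2bf 0.31. The cause of the other changes below was not tested, except that tests without the filter cover more genes.

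The schedule by stage interaction went from 2 calls to 1 with no filter and to 6 with values as deposited and 6 with upper quartile scaling. Shifted minus control mothers went from 13 to 20 with no filter, and shifted minus control fetuses from 16 to 7 with GC and length trends removed. Shifted minus control offspring on the high-fat diet went from 3 to 11 with GC and length trends removed and to 7 without the 5 libraries that stand apart. High-fat minus low-fat diet in offspring of control mothers went from 14 to 8 with pseudocount 0.1, 23 with no filter, 8 with values as deposited and 7 with only the libraries of the arms compared. The maternal schedule by diet interaction in offspring went from 0 to 2 with values as deposited, 3 with GC and length trends removed and 4 without the 5 libraries. Time of day in control mothers went from 2 to 1 with no filter and to 0 with GC and length trends removed. Time of day in low-fat control offspring went from 0 to 1 with no filter and to 2 with GC and length trends removed. Time of day in low-fat shifted offspring went from 1 to 0 with values as deposited, with upper quartile scaling, with GC and length trends removed and without the 5 libraries. Time of day in high-fat shifted offspring went from 9 to 4 with GC and length trends removed.

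With 1 library left out, the calls ranged from 36 to 41 and 37 to 41 for fetus minus mother (control and shifted schedule), 11 to 14 in mothers, 14 to 20 in fetuses, 10 to 17 and 11 to 16 for diet (offspring of control and shifted mothers). The schedule by stage interaction gave 1 (lowest; without control mother ZT0 replicate 1, among others) to 4 (without control fetus ZT0 replicate 3, among others). Shifted minus control offspring on the high-fat diet gave 2 (without control ZT6 replicate 1, among others) to 6 (without control ZT0 replicate 2), and the maternal schedule by diet interaction 0 to 2 (without shifted low-fat ZT0 replicate 1, among others). Time of day gave 0 (without ZT0 replicate 2, among others) to 3 (without ZT6 replicate 1) in control mothers, 0 to 1 (without ZT6 replicate 1) in low-fat control offspring, 0 (without ZT6 replicate 1, among others) to 1 in low-fat shifted offspring, and 2 (without ZT18 replicate 1) to 15 (without ZT18 replicate 3) in high-fat shifted offspring. All other counts stayed at 0.

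Whether replicate numbers pair the libraries is not stated. At most 3 of 12 same-numbered pairs correlated over 0.1 in any of the 8 comparisons of arms checked. Single pairs ran from -0.67 to 0.79 between control and shifted fetuses. Such correlations cannot exclude a pairing. With the number as a replicate block, time of day went from 2 to 0 in control mothers, from 1 to 0 in low-fat shifted offspring and from 9 to 5 in high-fat shifted offspring, 14 in place of 15 genes were called for diet in offspring of shifted mothers, and 38 in place of 39 for fetus minus mother on the shifted schedule; the other counts stayed the same.

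Most H2A and H3 genes lie below 1 FPKM in adults, where most were not tested.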
